A study of Mus musculus with 21 samples.

Results

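The nuclear-encoded subunits of oxidative phosphorylation were followed through the maturation of spiral ganglion neurons (SGNs), the neurons that carry sound information from the cochlea to the brain, and in hair cells and glia of the inner ear. The members were all genes of the count table whose symbol names a nuclear-encoded subunit of respiratory complexes I to IV or of the ATP synthase, with symbols ending in -ps left out, which gave 85 of 52550 genes. One of them, Cox6c2, is typed as a processed pseudogene in GENCODE vM21 and was kept, since its symbol fits the pattern. Complex I contributed 35 genes, complex II 4, complex III 9, complex IV 20 and the ATP synthase (complex V) 17. The pattern of symbols also took in Atp5s and Cox7a2l, which are named after these complexes but are not core subunits.

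RNA-Seq was carried out on 21 libraries in 7 groups of 3, all on the C57BL/6 background. SGNs were picked by hand at 5 ages (E15.5 and P1, then P8, P14 and finally P30) from mice carrying ShhCre/+ and the Rosa26-CAG-loxp-stop-loxp-tdTomato (Ai9)/+ reporter, with 69 to 195 cells per library. Hair cells (HCs), cochlear and vestibular together, were obtained by FACS according to the study's methods and sorted manually according to the labels. They came at P12 from Atoh1-CreER+ mice with the same reporter that received tamoxifen at P0 and P1, with 1200 cells per library. Glia came at P8 from vGlut3-iCreER/+ mice with the reporter that received tamoxifen at P2 and P3, with 86 to 125 cells per library picked from the SGN area after the inner hair cells had been cut away. Every group thus carried a Cre and the reporter. The Cre driver differed between all cell types, and tamoxifen is described only for HCs and glia. The number of cells and, by the study's methods, the isolation set HCs apart from SGNs and glia. These differences cannot be told apart from cell type. Nothing in the labels says that the 3 libraries of a group came from separate animals, so p-values measure the spread between these libraries.

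In the inner mitochondrial membrane, complex I (NADH dehydrogenase) and complex II (succinate dehydrogenase) pass electrons to ubiquinone, complex III passes them to cytochrome c, and complex IV (cytochrome c oxidase) passes them to oxygen. Complexes I, III and IV pump protons, and the ATP synthase uses the resulting gradient to make ATP. Most subunits are encoded in the nucleus and a few in mitochondrial DNA, and some complex IV subunits have a broadly expressed and a heart and skeletal muscle isoform, as with Cox8a and Cox8b.

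Libraries held 10368240 to 37287489 counted reads. The summed TPM of 7 HC markers was 2950 to 3407 in HCs and 13.9 to 240.0 in SGNs. The summed TPM of 6 glial markers was 7244 to 9825 in glia and 7.04 to 1407 in SGNs, where the P8 libraries held the most, at 771 to 1407. The 8 SGN markers summed to 681 to 4563 TPM in SGNs and to at most 230.0 in the other cells. The part of glial RNA in the SGN results was not tested. In such pooled cells, fewer cells of a type and less RNA per cell cannot be told apart. A single 57-base gene, Gm23935, took 8.17% to 68.1% of all TPM, so levels per library are given below as RPKM with TMM library sizes (reads per kilobase of gene length, with library sizes scaled by edgeR's trimmed mean of M values), which do not depend on that gene's share. The 3 replicates of glia were spread most widely: the median SD of a member's log2(RPKM + 0.5) was 0.74 in glia, 0.42 in SGNs at E15.5 and 0.19 to 0.30 in the other groups, and the SD was over 1 for 30 of 81 tested members in glia.

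The promoters of 68 members were matched by symbol to RefSeq windows on GRCm38.p6 that run from 250 bases before to 50 after the gene's start. Motifs were searched on both strands. The NRF1 motif (GCGCA, any base, then GCGC) lay in 25% of the members' windows and in 5.19% of the windows of all 27025 genes. The ETS-family motif CCGGAAG lay in 23.5% against 9.93%, the YY1 motif AAGATGGCG in 10.3% against 1.64%, and the nuclear receptor motif AAGGTCA in 11.8% against 5.38%. The E-box CAGCTG lay in 8.82% against 18.3%, and the TATA box TATAAA in 10.3% against 15.7%. These shares describe letters in a window, not bound sites. With 1 window per gene, the members' windows held more CpG dinucleotides than those of all genes, with a median of 19 against 7. Their median share of G and C was 57.3% against 52.7%. The part of this base composition in the motif shares was not tested. Members with and without an NRF1 match had much the same median log2 fold change from E15.5 to P30, 1.50 and 1.47. For the other motifs these medians were 1.17 with a match and 1.55 without for ETS, 1.27 and 1.50 for YY1, and 1.15 and 1.50 for the nuclear receptor motif. They are descriptions of 7 to 17 matched members, with no test. Below are the windows of Cox8a and Cox8b, the complex IV isoform pair whose shares changed most across SGN ages, and of Sdha, which held 3 NRF1 matches. Capitals mark the motifs just listed: ETS in Cox8a, the E-box and the TATA box in Cox8b, and NRF1 in Sdha. The TATAAA letters in Cox8b began 4 bases after the gene's annotated start, not before it. All 3 are on the minus strand and printed 5′ to 3′, at chr19:7217567-7217866 for Cox8a, chr7:140900397-140900696 for Cox8b and chr13:74350191-74350490 for Sdha.
Cox8a: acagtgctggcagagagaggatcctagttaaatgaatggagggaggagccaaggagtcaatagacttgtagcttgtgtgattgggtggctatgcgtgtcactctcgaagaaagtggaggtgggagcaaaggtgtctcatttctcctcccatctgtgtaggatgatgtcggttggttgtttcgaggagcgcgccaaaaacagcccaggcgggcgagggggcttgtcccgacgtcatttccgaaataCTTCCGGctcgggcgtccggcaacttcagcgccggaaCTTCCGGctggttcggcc
Cox8b: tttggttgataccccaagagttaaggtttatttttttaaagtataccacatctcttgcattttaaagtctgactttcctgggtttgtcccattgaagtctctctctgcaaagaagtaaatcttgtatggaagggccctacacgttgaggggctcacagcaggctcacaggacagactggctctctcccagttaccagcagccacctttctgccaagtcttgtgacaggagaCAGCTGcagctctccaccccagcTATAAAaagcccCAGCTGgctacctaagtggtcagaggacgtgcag
Sdha: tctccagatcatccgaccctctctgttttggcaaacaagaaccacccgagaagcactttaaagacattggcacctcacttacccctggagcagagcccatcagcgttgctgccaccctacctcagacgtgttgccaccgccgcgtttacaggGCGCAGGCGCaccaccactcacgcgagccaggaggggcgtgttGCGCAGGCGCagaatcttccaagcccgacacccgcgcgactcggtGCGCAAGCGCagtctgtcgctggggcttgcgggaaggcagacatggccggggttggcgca
The Cox8b window held 2 CpG dinucleotides, fewer than any other member's window, where the median was 19. The Cox8a window held 19 and the Sdha window 25.

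The members' summed level rose with age in SGNs. It was 2585, 3214 and 2755 RPKM in the 3 E15.5 libraries and 4621, 5094 and 4564 at P1. It was 6127, 6764 and 7386 at P8, 7009, 7875 and 9819 at P14 and 7164, 7428 and 8633 at P30. No library at E15.5, P1 and P8 reached the level of any library of the next of these ages, whereas P8, P14 and P30 overlapped. HCs (1934, 1905 and 1934) and glia (2589, 2490 and 2400) lay below all SGN libraries from P1 on, while glia overlapped with SGNs at E15.5. The order of HCs and glia depended on the unit. In TPM the means were 6944 in HCs, 2837 in glia, 3964 at E15.5 and 14056 at P14, where 1 P14 library (6336) lay below all HC libraries (6617 to 7265) and 1 P8 library (7202) among them. In CPM the means were 4593 in HCs, 4358 in glia, 5719 at E15.5 and 12931 at P14, and all SGN libraries lay above both. The mean at P30 was 2.72 times that at E15.5, with 2.61 times for complex I, 3.42 for complex II, 2.98 for complex III, 2.37 for complex IV and 3.04 for complex V. As a share of all counted reads the members rose from between 0.543% and 0.592% at E15.5 to between 1.13% and 1.25% at P30. No p is given for these sums, which describe the members.

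**Figure D1:**
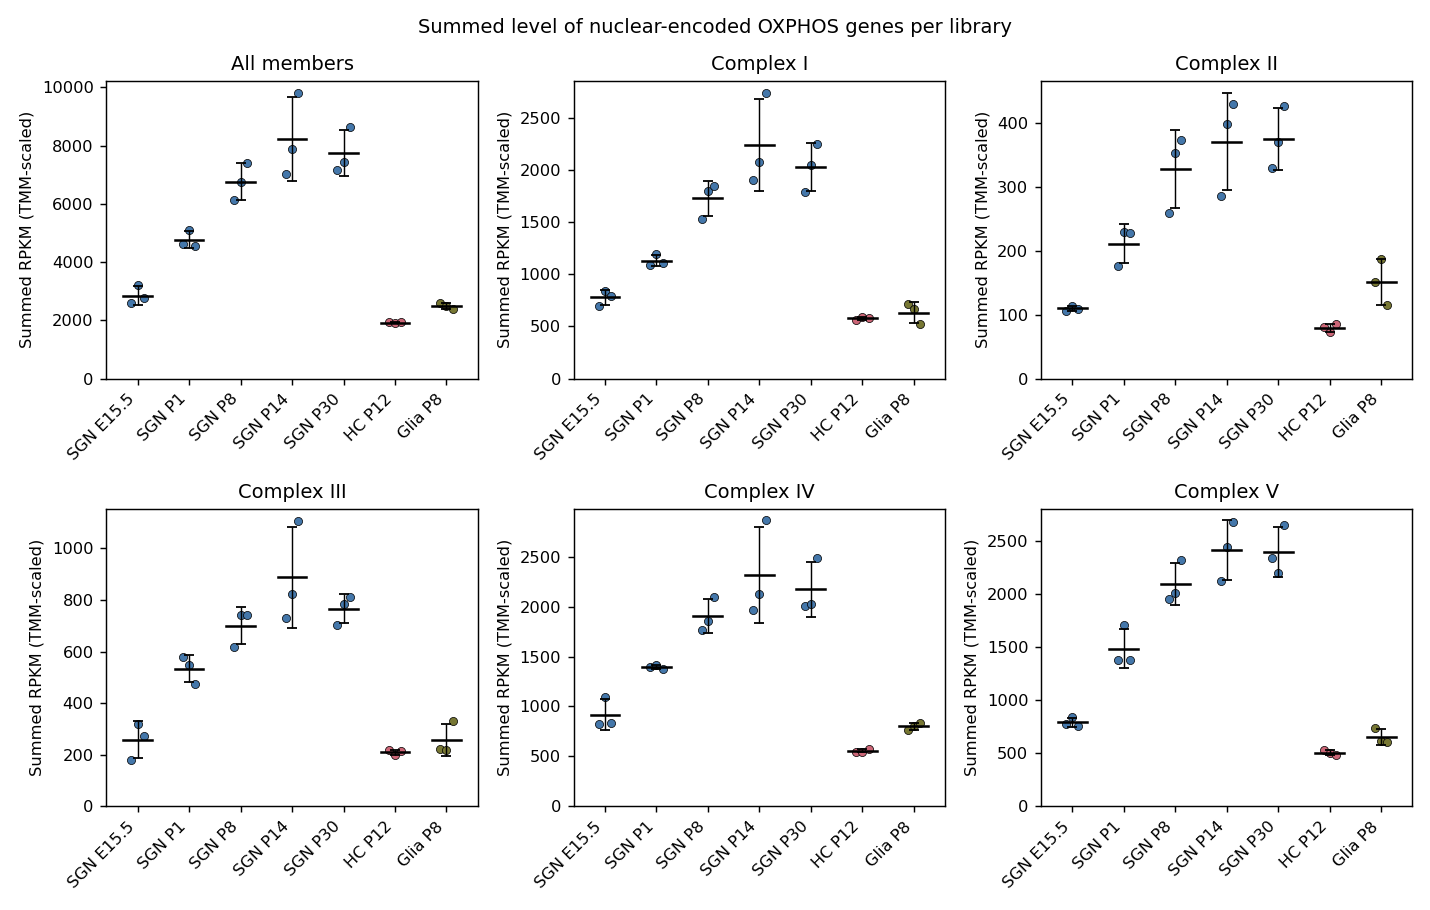
Summed RPKM with TMM library sizes (y axis) of all members and of each complex in the 7 groups (x axis), with 1 point per library, the mean as a line and the SD as bars (n = 3). In this unit the sum over all members is lowest in HCs, with a mean of 1924 (in TPM and CPM it is lowest in glia), and highest in SGNs at P14, with a mean of 8234.

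The comparison of E15.5 with P30 addressed how SGNs change over the whole time course. Of the 85 members, 81 passed the filter on low counts, and 70 of these rose and none fell at an adjusted p under 0.05 (limma-voom, Benjamini-Hochberg over 15113 genes). Over all genes tested, 22.1% rose and 19.3% fell. Of the members, 59 rose at least 2-fold, as did 18.4% of all genes. The members' median log2 fold change was 1.50, against -0.01 over all genes. Cytosolic ribosomal protein genes had a median of -0.94, with 62 of 87 falling and none rising. By limma's F test across the 5 ages, 67 of 81 members changed, against 37.8% of all genes.

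Complex I, the entry point for NADH, had 31 of 35 members that rose, including all 7 core subunits (median 1.68) and 24 of 28 accessory subunits (median 1.36). Ndufv2, a core subunit of the NADH-binding module, was 5.44, 17.1 and 5.31 RPKM at E15.5 and 37.9, 40.9 and 61.1 at P30, with no overlap. Its log2 fold change was 2.43 ± 0.39 (SE, limma-voom, adjusted p = 0.000129). Ndufb9, an accessory subunit and the complex I member with the highest mean TPM, rose by 1.63 ± 0.31 (limma-voom, adjusted p = 0.000573), and Ndufb2, the lowest, rose by 1.50 ± 0.29 (limma-voom, adjusted p = 0.000726). Ndufb7, another accessory subunit, was 4.05, 6.21 and 9.60 at E15.5 and 8.16, 5.58 and 7.90 at P30. The 2 ages overlapped, and its log2 fold change of 0.14 ± 0.34 was smaller than its error.

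Complex II, which also works in the tricarboxylic acid cycle, is made of 4 subunits, all nuclear. Sdha, the flavoprotein that oxidises succinate, was 25.2, 32.0 and 41.7 RPKM at E15.5, 46.5, 65.4 and 67.0 at P1 and 94.1, 152 and 149 at P8. It was 137, 170 and 190 at P14 and 146, 160 and 179 at P30. Each step up to P8 was free of overlap, and the later ages overlapped. From E15.5 to P30 Sdha rose by 2.26 ± 0.24 (limma-voom, adjusted p = 1.77e-06) and Sdhd, a membrane anchor, by 1.86 ± 0.26 (limma-voom, adjusted p = 4e-05). Sdhc, the other anchor, passed the test narrowly at 0.91 ± 0.34 (limma-voom, adjusted p = 0.0432) and no longer did so in any of the 10 alternative fits. Sdhb, the iron-sulphur subunit, had a log2 fold change of 0.69 ± 0.30 (limma-voom, adjusted p = 0.0714).

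Complex III had 8 of 9 members that rose (median 1.49). Cyc1, the cytochrome c1 that hands electrons to cytochrome c, was 43.0, 73.0 and 72.8 RPKM at E15.5 and 171, 198 and 182 at P30, and rose by 1.51 ± 0.29 (limma-voom, adjusted p = 0.000589). The groups did not overlap. Uqcrb, the ubiquinone-binding subunit and the complex III member of lowest mean TPM, had a log2 fold change of 1.33 ± 0.53 (limma-voom, adjusted p = 0.053).

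Complex V had 14 of 17 members that rose (median log2 fold change 1.50). Atp5b, the catalytic beta subunit and the ATP synthase gene of highest mean TPM, was 259, 250.5 and 236 RPKM at E15.5 and 941, 773 and 949 at P30. The ages did not overlap, and the rise was 1.81 ± 0.13 (limma-voom, adjusted p = 3.96e-08). Atp5s, a factor named after the complex and its lowest member in TPM, rose by 2.67 ± 0.57 (limma-voom, adjusted p = 0.00146), from 0.786, 1.71 and 6.53 to 12.2, 16.7 and 16.1. Atp5e, the epsilon subunit, had a log2 fold change of 0.17 ± 0.29, with no call.

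**Figure D2:**
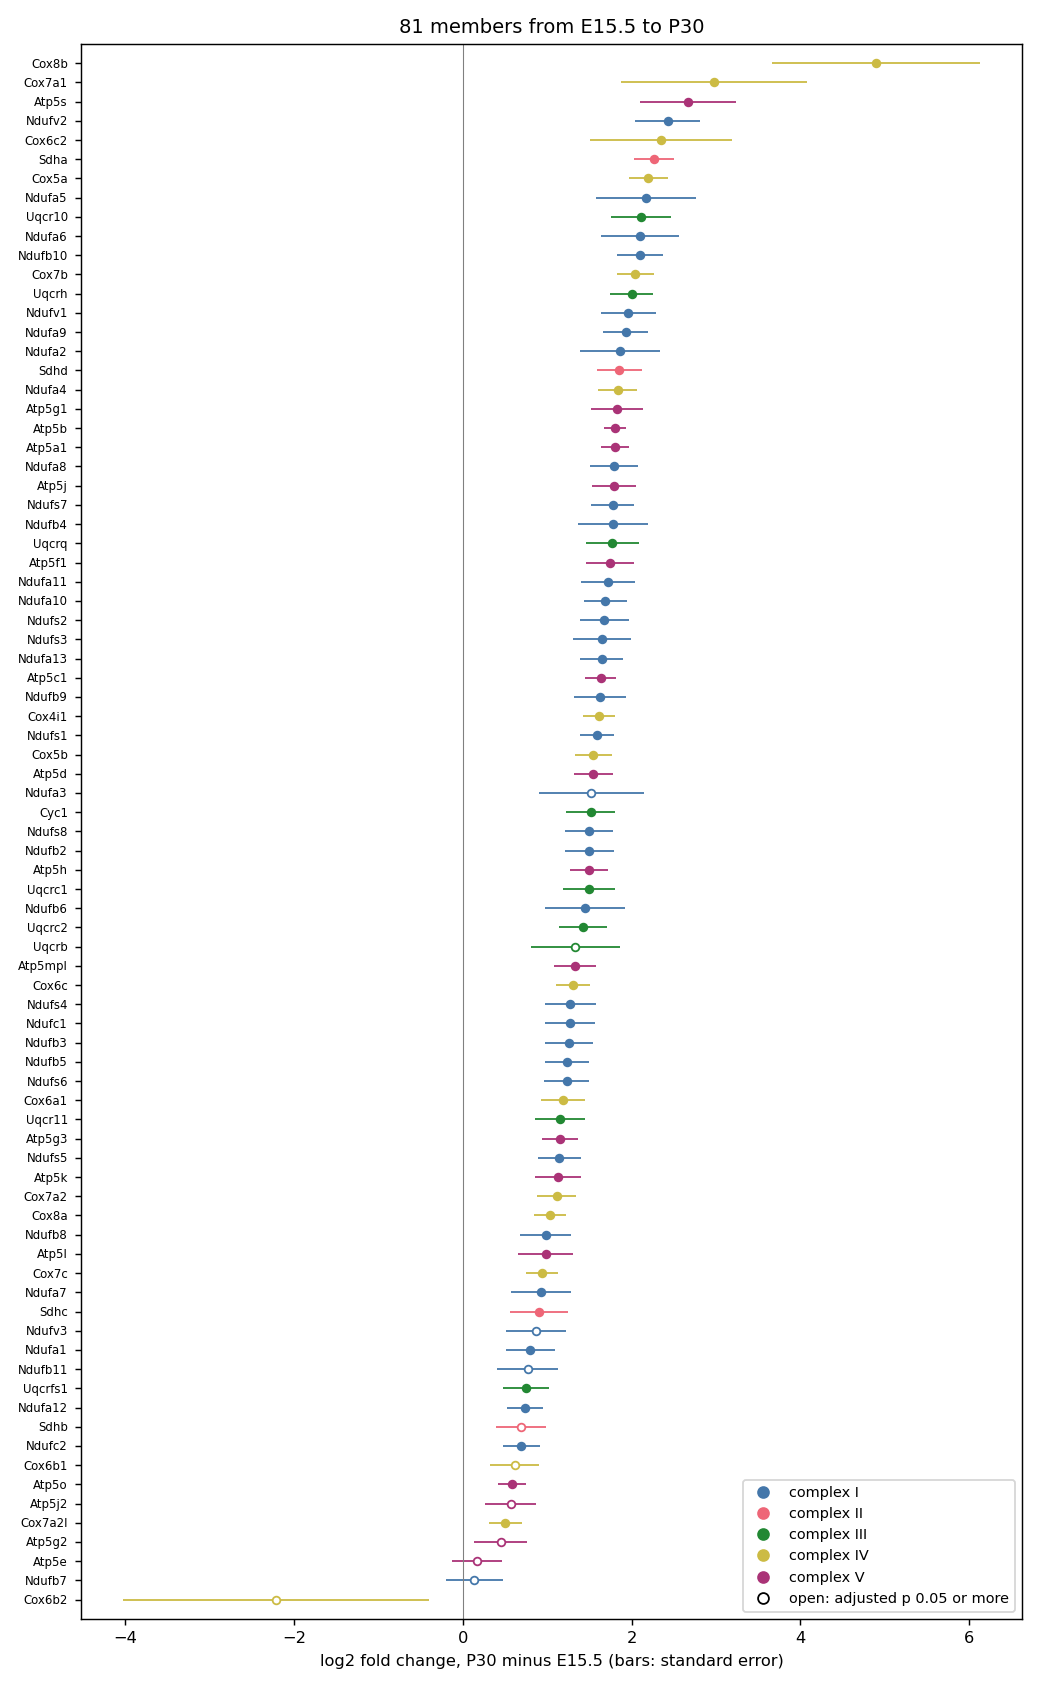
Log2 fold change from E15.5 to P30 (x axis, with standard error) for each of the 81 members tested (y axis), coloured by complex, with open points where the adjusted p was 0.05 or more. 80 of 81 points lie above 0, and the exception is Cox6b2.

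Complex IV had 14 of 16 tested members that rose (median 1.42), the pseudogene Cox6c2 among them, and it holds the isoform pairs. Cox8b, the heart and muscle isoform of subunit 8, lies on the minus strand of GRCm38 at chr7:140898945-140900446. It was 0, 1.35 and 1.88 RPKM at E15.5, 4.68, 3.08 and 0.236 at P1 and 1.19, 8.09 and 2.69 at P8. It was 49.4, 42.3 and 30.6 at P14 and 21.8, 25.4 and 16.4 at P30. All libraries at P14 and P30 were above all earlier ones. HCs (0.328, 1.19 and 0.223) and glia (0.287, 0.484 and 0) were near the floor. The underlying counts were 0, 10 and 14 reads at E15.5 and 415, 286 and 179 at P14. Cox8b rose by 4.89 ± 1.23 from E15.5 to P30 (limma-voom, adjusted p = 0.00481). The step from P8 to P14 was 3.78 ± 0.79 (limma-voom, adjusted p = 0.0349), and its adjusted p was 0.0608 to 0.163 when any 1 of the 6 libraries was left out and 0.211 in edgeR's quasi-likelihood test. The summed TPM of 9 muscle markers was 0.617 to 3.07 at P14, the lowest of the 5 ages at its highest library, and 1.32 to 27.0 in the other SGN libraries.

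Cox8a, the broadly expressed isoform, stayed far above Cox8b. It was 135, 158 and 129 RPKM at E15.5 and 299.8, 266 and 316 at P30, without overlap, and rose by 1.03 ± 0.19 (limma-voom, adjusted p = 0.000468). The share of Cox8b in the summed TPM of the pair was 0.762% ± 0.724 at E15.5, 1.09% ± 0.936 at P1 and 1.34% ± 1.14 at P8 (SD, n = 3). It was 12.2% ± 4.30 at P14 and 6.81% ± 1.89 at P30. Every P14 and P30 library had a higher share than every earlier one. An exact permutation test over all 1401400 partitions of the 15 SGN libraries gave p = 0.000442 for any difference among ages (adjusted p = 0.00354 over 8 shares).

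The other isoform pairs of complex IV did not pass that test. Cox7a1, the muscle isoform of subunit 7a, was 2.62, 0.0908 and 4.89 RPKM at E15.5 and 7.44, 8.29 and 14.5 at P30, while Cox7a2, its broad counterpart, was 75.6, 51.1 and 49.0 and then 108, 126 and 148. Both rose, by 2.97 ± 1.10 and 1.11 ± 0.23 (limma-voom, adjusted p = 0.0394 and 0.00119), but the Cox7a1 call was lost in 7 of the 10 alternative fits. Cox6b2, the testis isoform of subunit 6b, had 2.53, 6.66 and 0.0874 at E15.5 and 3.23, 0 and 0.0969 at P30, so that single libraries decide its value of -2.21 ± 1.81 (limma-voom, adjusted p = 0.342). Cox6b1, its broad counterpart, had a log2 fold change of 0.61 ± 0.29 (limma-voom, adjusted p = 0.104). Among the broad subunits, Cox4i1 rose by 1.61 ± 0.19, Cox7b by 2.05 ± 0.22 and Cox6a1 by 1.19 ± 0.26 (limma-voom, adjusted p = 6.58e-06, 2.71e-06 and 0.00163). Cox7a2l, a supercomplex assembly factor, passed narrowly at 0.51 ± 0.19 (limma-voom, adjusted p = 0.0451), and its call was lost in 8 of the 10 alternative fits. Cox4i2, Cox6a2, Cox7b2 and Cox8c failed the filter: Cox4i2 reached 86 reads in 1 P30 library and at most 21 in all others, Cox6a2 and Cox7b2 at most 14, and Cox8c at most 12.

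The c subunit of the ATP synthase, whose ring turns in the membrane, is encoded by Atp5g1, Atp5g2 and Atp5g3, which give the same mature protein. Atp5g1 was 24.8, 27.6 and 19.5 RPKM at E15.5 and 75.2, 80.9 and 106 at P30, and rose by 1.83 ± 0.31 (limma-voom, adjusted p = 0.000214). Atp5g3 was 33.7, 51.4 and 45.8 and then 97.9, 91.0 and 109, and rose by 1.15 ± 0.22 (limma-voom, adjusted p = 0.000523). Neither gene's ages overlapped. Atp5g2 was 14.8, 23.4 and 15.2 and then 29.8, 17.5 and 26.1, which overlap, and its 0.45 ± 0.31 was not called (limma-voom, adjusted p = 0.262). In the summed TPM of the 3 genes, Atp5g1 went from 28.3% ± 4.94 to 41.3% ± 3.71 and Atp5g2 from 20.6% ± 2.04 to 11.6% ± 2.80 (SD, n = 3; exact permutation test across 5 ages, adjusted p = 0.0477 for each). In HCs Atp5g2 made up 35.0% ± 5.03 of the sum. Copies elsewhere in the genome, with at least 97% identity over 100 bases and over 50% or more of the copy's transcript, held reads worth 17.8% of Atp5g1's own count and 43.8% of Atp5g2's, so these levels are uncertain.

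**Figure D3:**
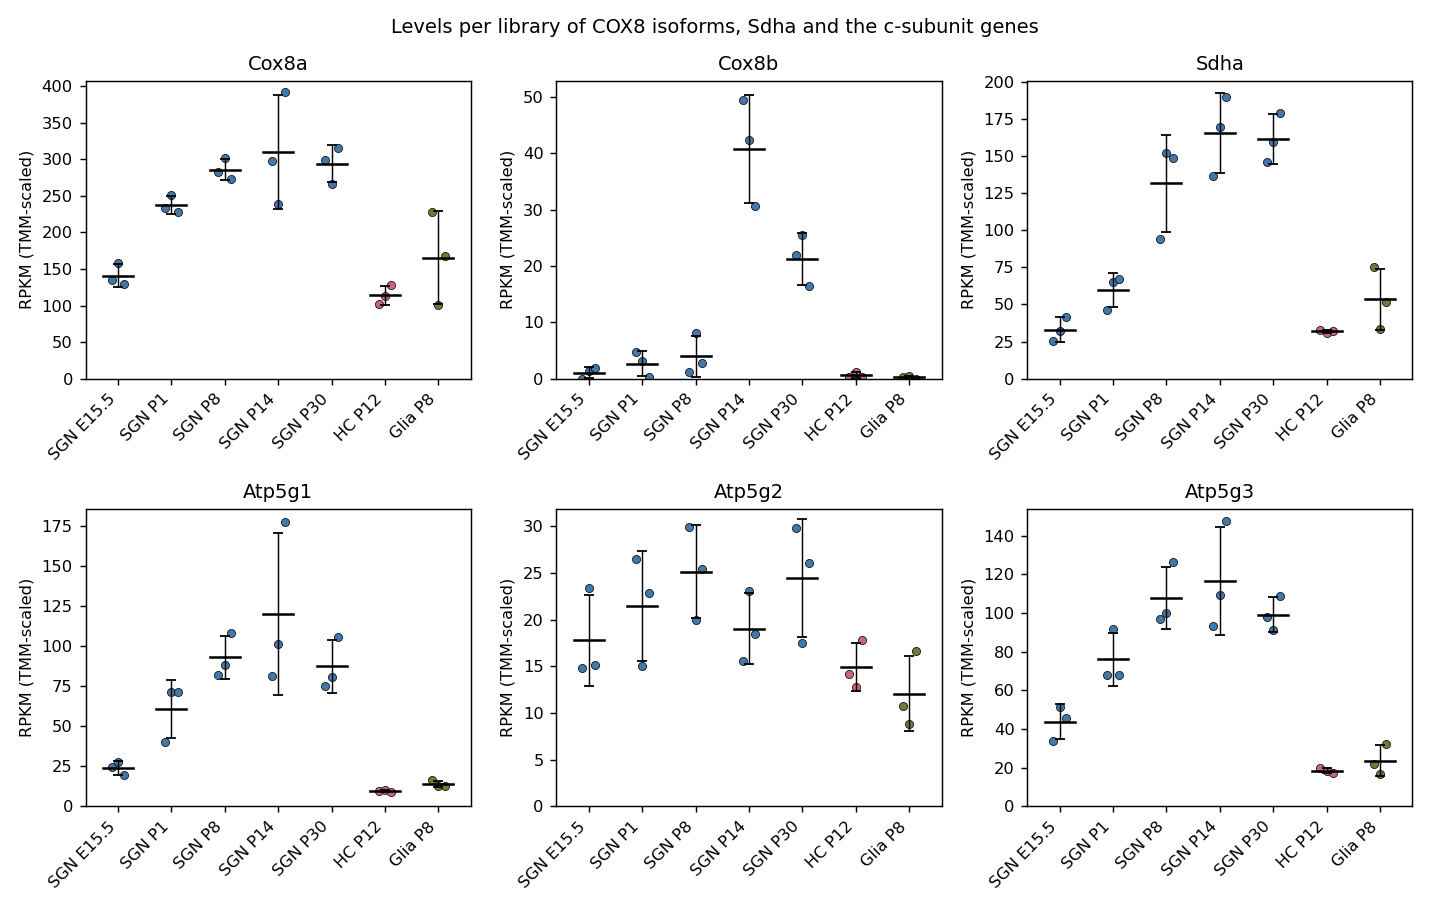
RPKM with TMM library sizes (y axes, on scales of their own) of the COX8 isoforms, Sdha and the 3 c-subunit genes in the 7 groups (x axes), with 1 point per library, the mean as a line and the SD as bars (n = 3). Cox8b is at 30.6 or more at P14 and at 8.09 or less at all earlier ages, in HCs and in glia.

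The age steps placed most of the change before P8. These steps share groups, so each is given on its own values. From E15.5 to P1, 26 of 81 members rose and none fell, against 6.79% of all genes that rose and 4.31% that fell, with a median log2 fold change of 0.76 against 0.07. The largest called rises were those of Ndufa8, an accessory complex I subunit, at 1.51 ± 0.28, of Uqcr10, a small complex III subunit, at 1.42 ± 0.36 and of Cyc1 at 1.36 ± 0.29 (limma-voom, adjusted p = 0.00333, 0.0209 and 0.0073). Ndufa8 was 18.3, 25.7 and 26.9 RPKM at E15.5 and 68.8, 59.5 and 76.7 at P1, without overlap. Atp5s had a larger value, 1.75 ± 0.59, that did not pass (limma-voom, adjusted p = 0.0621). The count of 26 fell to 8 without P1 replicate 2.

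From P1 to P8, 16 members rose and none fell, against 6.59% of all genes that rose and 4.56% that fell, with a median of 0.54 against -0.01. Sdha rose by 1.14 ± 0.21, Ndufb5 by 0.93 ± 0.23 and Ndufb3 by 0.91 ± 0.25 (limma-voom, adjusted p = 0.00191, 0.0149 and 0.0273), the last 2 being accessory subunits of complex I. Atp5b rose by 0.48 ± 0.12, Cox4i1 by 0.59 ± 0.18 and Cox7b by 0.82 ± 0.19 (limma-voom, adjusted p = 0.0122, 0.0384 and 0.00982). The calls of Ndufb3, Atp5b and Cox4i1 were each lost in 3 of the 10 alternative fits. The count of 16 was 2 without P8 replicate 3, 4 without P1 replicate 1, 5 without P1 replicate 3 or P8 replicate 2, and 10 without P1 replicate 2.

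From P8 to P14 Cox8b was the 1 member called, against 0.801% of all genes, and 75 of 81 members had a positive value with a median of 0.29. With any 1 of the 6 libraries left out no member was called. Cox6b2 went from 3.49, 3.65 and 4.15 RPKM to 0.232, 0.288 and 0.222, without overlap, and its -3.79 ± 1.59 did not pass (limma-voom, adjusted p = 0.355). From P14 to P30 no member was called by limma-voom, by edgeR's quasi-likelihood test or by DESeq2, 2 had an unadjusted p under 0.05 in limma-voom, the median was -0.09, and 0.086% of all genes were called.

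**Figure D4:**
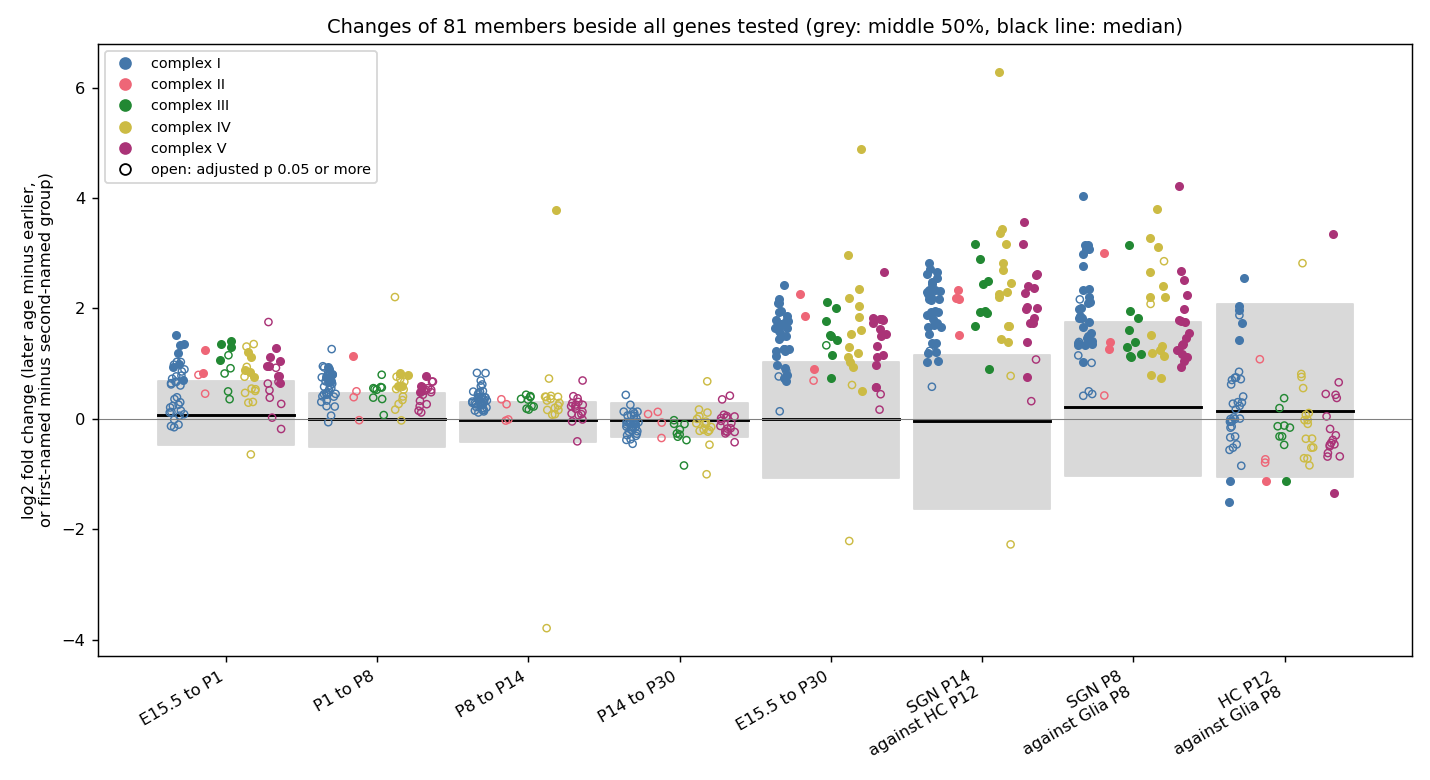
Log2 fold changes (y axis) of the 81 members in the 8 comparisons (x axis), coloured by complex, filled where the adjusted p was under 0.05, over the middle 50% (grey) and median (black line) of all genes tested. Members sit above the grey range most widely from E15.5 to P30 and for SGNs against HCs or glia, and straddle 0 for HCs against glia.

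SGNs at P14 were compared with HCs at P12, which pool the cochlear receptor cells that SGNs contact with vestibular ones. Of 81 members, 75 were higher in SGNs and none was lower, against 22.1% and 22.4% of 17531 genes. The median log2 difference was 2.02, against -0.04 over all genes, and 73 members were called and at least 2-fold higher, as were 20.1% of all genes. The TMM factors were 1.36 to 1.39 in HCs and 0.784 to 0.903 in SGNs at P14. They make these differences larger than library size only would, so their size depends on the normalization. Cox8b differed most, by 6.29 ± 1.00, followed by Atp5g1 with 3.57 ± 0.38 and Cox6c2, the processed pseudogene, with 3.45 ± 0.84 (limma-voom, adjusted p = 3.1e-05, 2.85e-07 and 0.00211). Cox6c2 had 54, 22 and 29 reads in SGNs and 2, 4 and 3 in HCs, so that its fold is poorly set. Atp5b was 859, 827 and 879 RPKM in SGNs and 164, 166 and 155 in HCs, without overlap (limma-voom, adjusted p = 3.6e-10). All 4 complex II genes were higher, by 1.51 ± 0.42 for Sdhc to 2.34 ± 0.27 for Sdha (limma-voom, adjusted p = 0.00554 and 6.55e-07). The 6 members without a call were Atp5g2, Atp5s, Cox6b2, Cox7a1, Ndufb3 and Ndufv3. For Atp5g2 the difference was 0.32 ± 0.35, for Atp5s 1.08 ± 0.55, for Cox7a1 0.78 ± 1.14 and for Cox6b2 -2.27 ± 1.75.

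SGNs at P8 were compared with glia of the same age. Of 81 members, 71 were higher in SGNs and none was lower, against 24.5% and 18.5% of all genes. The median log2 difference was 1.67, against 0.22 over all genes and 0.55 over other genes in the members' middle range of length. Atp5s (4.21 ± 0.91), Ndufs5 (4.03 ± 0.68), an accessory complex I subunit, and Cox5a (3.80 ± 0.49), a broad complex IV subunit, differed most (limma-voom, adjusted p = 0.000893, 8.05e-05 and 4.91e-06). Cox5a was 29.5, 31.5 and 29.7 RPKM in SGNs and 3.22, 3.98 and 0.644 in glia, without overlap. Ndufs5 was 29.2, 27.0 and 38.0 in SGNs and 0.600, 13.6 and 0.898 in glia, where 1 library stood apart from the other 2. A copy, BC002163, held reads worth 41.3% of the Ndufs5 count, so its level is uncertain. Atp5b was higher by 1.76 ± 0.16 and Sdhb by 3.01 ± 0.63 (limma-voom, adjusted p = 5.21e-08 and 0.000647), while Sdhc was not called at 0.42 ± 0.37 (limma-voom, adjusted p = 0.37). In glia 1 library also stood apart for Sdhb (586, 30 and 46 reads) and for Atp5s (154, 4 and 2 reads). With 1 library left out, the log2 differences were 2.26 to 4.32 for Sdhb and 3.15 to 5.92 for Atp5s. With the trend of change on gene length removed, 38 members were called in place of 71.

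HCs and glia were also compared with each other. Of 81 members, 6 were higher in HCs and 5 in glia, against 25.1% and 19.7% of all genes, with a median log2 difference of -0.05 against 0.14. Atp5s (3.35 ± 0.96), Ndufs5 (2.56 ± 0.74) and Ndufb5 (2.04 ± 0.59) were the most raised in HCs (limma-voom, adjusted p = 0.00731, 0.0076 and 0.00788). The Ndufs5 call was lost in 6 of the 10 alternative fits, with an adjusted p of 0.181 in edgeR's quasi-likelihood test, and those of Atp5s (0.102 in edgeR) and Ndufb5 in 2 each. The reads in glia were 154, 4 and 2 for Atp5s, 10, 134 and 8 for Ndufs5 and 749, 45 and 44 for Ndufb5. With 1 library left out, the highest adjusted p in limma-voom was 0.0764 for Atp5s, 0.0986 for Ndufs5 and 0.0634 for Ndufb5. Each of these calls thus hung on single libraries. Ndufs3, a core complex I subunit, was -1.51 ± 0.40, Atp5d, the delta subunit of the ATP synthase, -1.34 ± 0.34 and Sdhc -1.13 ± 0.45 (limma-voom, adjusted p = 0.00452, 0.00349 and 0.0465), and the Sdhc call was lost in 5 of 10. A copy of Ndufs3, Gm12251, held reads worth 34.8% of its count. The split changed with the length trend removed, where 2 members were higher in HCs and 33 in glia. The cause was not tested.

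The genes around the members gave these counts from E15.5 to P30, in lists drawn up with earlier results of these data known, where 22.1% of all genes rose and 19.3% fell. Of 13 subunits encoded in mitochondrial DNA, 12 rose and none fell (median 2.00). Of 17 genes of the tricarboxylic acid cycle and the pyruvate dehydrogenase complex, 16 rose and none fell (median 1.75), led by Sucla2, a subunit of succinyl-CoA ligase. Of the assembly factors, which help to build the complexes, 8 of 15 rose for complex I (median 1.34), led by Tmem126b, and 12 of 30 for complexes II to V (median 1.21), led by Uqcc1, and none fell in either list. Of 8 further genes tested that are linked to OXPHOS but are not all subunits, 7 rose, led by Chchd10 at 4.10 ± 0.42 (limma-voom, adjusted p = 1.6e-06). Of 15 mitochondrial transporters, 11 rose, led by Mpc2, a pyruvate carrier subunit, and Ucp2 fell.

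Of 12 regulators of these genes, 5 rose and 2 fell, with a median of 0.73, beside the 22.1% and 19.3% of all genes. Ppargc1a, the coactivator PGC-1alpha, was 3.28, 5.04 and 6.06 RPKM at E15.5, 32.5, 51.4 and 39.2 at P1 and 74.3, 70.3 and 77.8 at P30. No library of one of these ages reached the next, and the log2 fold change from E15.5 to P30 was 3.92 ± 0.27 (limma-voom, adjusted p = 2.61e-08). HCs had 3.15, 2.93 and 3.22 and glia 16.3, 11.8 and 6.11. The nuclear receptors Esrra, Esrrb and Esrrg rose by 2.87 ± 0.70, 9.05 ± 1.71 and 0.95 ± 0.19 (limma-voom, adjusted p = 0.00377, 0.000557 and 0.000719), and Esrrb was at 0 or near it at E15.5, so that its fold is poorly set. Ppargc1b also rose. Pprc1, a related coactivator, and Nrf1, the factor whose motif was searched above, fell, with log2 fold changes of -1.67 ± 0.37 and -1.31 ± 0.42 (limma-voom, adjusted p = 0.00213 and 0.0191).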

How the data were processed

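RNA-Seq libraries of SGNs, HCs and glia were analysed from a table of counts per gene that the authors deposited. Per the methods and labels, RNA was isolated with PicoPure and amplified with Ovation RNA-Seq V2, and paired-end reads were aligned to mm10 with STAR 2.4.0i and counted with featureCounts on GENCODE vM15. Strand, multi-mapping and pair settings are not given in the sources used here. Of counts from 1 to 20, 64.3% to 75.0% were even per library, and whether mates of a pair were counted apart is not stated.

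From these counts, TMM factors, limma-voom (limma 3.58.1, edgeR 4.0.16) and contrasts were computed in R 4.3.3, in 1 fit of 15 SGN libraries for ages and 1 of 21 libraries for cell types, keeping a gene if some group had it above 1 CPM in each of its 3 libraries. DESeq2 1.42.0 was an alternative. Calls were adjusted p under 0.05. The fits were tested on simulated data. The first bar set for recovery in that test was not met at the spread of these libraries, and was replaced by checks of bias, false calls and recovery at a small known spread. Members lacking a call thus cannot be read as unchanged.

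Named members were the isoform groups, the Sdh genes, the highest and lowest mean TPM in each complex, the 3 largest called rises and falls in each comparison, and members that failed the filter; other members given were picked after their values were seen. Members and lists were chosen with earlier results of these data known. Errors after ± are SEs of the limma-voom fit for log2 values and SDs over 3 libraries for shares. Copies aligned over at least 50% of their transcript and holding over 10% of a member's reads were found for 9 members with BLAST 2.17.0. Exons of 28 members overlap another gene. RPKM with TMM library sizes and the TATA motif were chosen after the data were seen.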

Additional observations from a re-analysis of the deposited data

How the results depend on the processing

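Counts of members called moved by over 1.5 times as follows. From E15.5 to P1 (26) there were 16 with library size only, 16 with no filter, 11 with sample quality weights and 8 in a fit of the 6 libraries alone, and 8 to 28 with 1 library left out. From P1 to P8 (16) there were 6 with edgeR's quasi-likelihood test, 3 with library size only, 33 with quality weights and 2 to 16 with 1 library left out. From P8 to P14 (1) there were 0 with edgeR and with no filter, 2 each with DESeq2, quality weights, the 6 libraries alone and the replicate block, and 0 to 0 with 1 library left out. For SGN P8 against glia (71) there were 38 with the length trend removed. For HCs against glia (11) there were 18 with edgeR, 17 with DESeq2, 35 with the length trend removed, 3 with quality weights, 6 in the 6 libraries alone and 6 to 14 with 1 library left out. From E15.5 to P30 (70) and against HCs (75), counts moved by less than 1.5 times in every alternative run, with 58 to 66 and 69 to 74 when 1 library was left out. The cause was not tested.

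With 1 library left out, the range of age means of the Cox8b share was 9.96 to 13.9 percentage points and that of the Cox4i2 share 0.166 to 0.688. The summed level at P30 over E15.5 was 2.38 in TPM, 2.10 in CPM, 2.75 without mitochondrially encoded genes and 2.72 as RPKM with TMM library sizes, the last chosen after seeing the data. Some uncalled or narrow values changed sign: with library size only, Atp5g2 (-0.0224), Ndufb7 (-0.32) and Atp5e (-0.30) from E15.5 to P30 and Atp5g2 against HCs (-0.38); with the length trend removed, Cox7a2l (-0.0747) and Sdhc (-0.12) against glia and Atp5e from E15.5 to P30 (-0.0511); and Ndufb7 from E15.5 to P30 without E15.5 replicate 1 (-0.126 to 0.450 over the libraries left out). Library size only moved the median of all genes from -0.01 to -0.48 from E15.5 to P30, where the members' median was 1.04. In no comparison did all 3 same-numbered pairs correlate over 0.1, the rule used here for pairing by replicate number. Between neighbouring postnatal SGN ages these correlations were all positive. They were 0.064 to 0.366 for P1 with P8, 0.020 to 0.324 for P8 with P14 and 0.092 to 0.384 for P14 with P30. Each other comparison held a negative value. The summed TPM of 5 connective tissue markers was highest in replicate 1 at every SGN age, but not in HCs or glia. A batch shared by replicate number was not tested. With the replicate block 27 members were called from E15.5 to P1, 17 from P1 to P8 and 13 for HCs against glia.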
